A study of Mus musculus with 6 samples.

Results

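Type I interferon response genes are the genes that a cell switches on when interferon alpha or beta binds its receptor. A list of 43 such genes was followed in lymph node cells of pregnant mice, chosen by name and function with earlier results of these data known. Of these, 42 had a row among the 14125 genes counted. Isg15, the ubiquitin-like protein at the head of the list, had none and is not analysed here. The 42 genes held 139355 UMIs (unique molecular identifiers, 1 per captured transcript), which was 0.610% of all UMIs.

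The cells came from brachial lymph nodes (brLN) and lymph nodes draining the uterus (udLN) of 4 Aire-DTR and 3 WT dams, each mated to a BALB/c male and examined at embryonic day 9.5. In Aire-DTR mice the diphtheria toxin receptor is tied to Aire, the regulator by which medullary thymic epithelium and a few cells outside the thymus display self antigens, so that toxin removes Aire-expressing cells. Dams of both genotypes received diphtheria toxin through the first 9 days of pregnancy, so WT mice are toxin-treated controls. The mice were loaded in 3 pools of 2 wells each. Pool 1 held Aire-DTR mouse 8 and WT mouse 6, pool 2 held Aire-DTR mouse 36 and WT mouse 97, and pool LN held Aire-DTR mice 4 and 7 and WT mouse 1. The deposited cell table lists the pregnancies of Aire-DTR mice 8, 36 and 7 as IUGR and that of Aire-DTR mouse 4 as resorbed. The labels name the sorted cells CD45+ CD3+ in 1 place and CD45+ in another, and B cells were present. No source used here states the dams' age or strain. Uterine cells of pools 1 and 2 are left aside.

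In the matrix 1 well of pool LN stood in duplicate, with identical counts for its 2127 cells. These cells were counted once, which left 7300 cells and 22833288 UMIs of 9427 cells and 29210327 UMIs deposited. Depth was a median of 2910 UMIs per cell, and a mouse and node gave 48 to 1060 cells. The shallowest was the udLN of WT mouse 97, with 155098 UMIs, and the deepest the brLN of Aire-DTR mouse 7, with 3351478 UMIs. Of 7089 barcode sequences, 208 occurred in more than 1 well. Aire itself had 5 UMIs in 3106 cells of Aire-DTR brLN and 3 in 1881 cells of WT brLN, and none in 1702 and 611 udLN cells, so these cells give no check of its removal. The deposited cell types carried their defining markers: the B cell list summed to 8843 CPM (counts scaled to 1e6 UMIs of a sum) in B cells and to 19.3 to 49.4 CPM in the CD4 and CD8 types, and the regulatory T cell list to 1495 CPM in CD4+ Treg and 26.6 CPM in CD4+ Naive T. Some types also held markers of other cells. The 73 cells named Myeloid carried 8728 CPM of myeloid genes, while their erythroid genes summed to 57044 CPM, granulocyte genes to 38151 CPM and T cell genes to 1243 CPM. CD4+ Mem T cells held 350 CPM of CD8 markers beside 181 CPM of Cd4, and 678 CPM of the regulatory T cell list.

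Interferon alpha and beta bind a receptor made of Ifnar1 and Ifnar2. The signal acts through a factor that contains Stat2 and Irf9 and binds a DNA element with a repeated GAAA core, and the genes behind that element block the life cycle of a virus at many steps. In resting lymph nodes a low tonic level of this programme is a normal state of lymphocytes. The largest group of members were antiviral effectors. Ifit1, Ifit2, Ifit3 and Ifit3b bind foreign RNA or its translation machinery, Isg20 degrades RNA, Rsad2 (viperin) makes a chain-ending nucleotide, Eif2ak2 is the kinase that halts translation, Bst2 (tetherin) holds budding virions on the membrane, and the Schlafen genes Slfn1, Slfn2 and Slfn5 are linked to the restraint of T cell growth in mice. Usp18 removes Isg15 from proteins and dampens the receptor. Irf7 is the factor that amplifies interferon alpha, Ddx58 (RIG-I), Ifih1 (MDA5) and Dhx58 (LGP2) sense viral RNA, and the Ifi203 to Ifi214 genes belong to the PYHIN family of DNA-binding proteins. Parp9 and Parp14 are ADP-ribosyltransferases, and Igtp and Ifi47 are immunity-related GTPases. Of the interferon genes themselves that were looked for, only Ifng, the type II interferon, had a row, with 21 UMIs. Several members have near-identical copies (Ifit3 and Ifit3b, the PYHIN genes, the Schlafen genes, Phf11b, Trim30a), and counts of those may be shared between copies.

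The start-site sequences of the members were searched for that element. RefSeq sequence of build GRCm38.p6 was available for 35 of the 42 measured members. In the 250 bases before the start, both strands were searched for GAAA, any 2 bases, then GAAA (read as TTTC, 2 bases, TTTC on the other strand), and overlapping matches were counted apart. A match stood before 15 of the 35 members, or 42.9%, against 3.46% of the 27025 gene symbols with such a sequence. At least 2 matches stood before 4 members (Ifit1, Ifit3, Ifit3b and Bst2, of which the pair before Bst2 overlap), against 0.211% of all symbols. Ifit3 and Ifit3b shared an identical run of 169 bases in this window. Their windows are shown because reads of the pair are hard to tell apart and because each holds a pair of matches, and that of Rsad2 because its single match differs in the spacer bases. Capitals mark the matches, and each line reads 5′ to 3′ on the strand of the gene. These are chr19:34583279-34583528 (plus strand), chr19:34607707-34607956 (plus strand) and chr12:26456453-26456702 (minus strand).
Ifit3: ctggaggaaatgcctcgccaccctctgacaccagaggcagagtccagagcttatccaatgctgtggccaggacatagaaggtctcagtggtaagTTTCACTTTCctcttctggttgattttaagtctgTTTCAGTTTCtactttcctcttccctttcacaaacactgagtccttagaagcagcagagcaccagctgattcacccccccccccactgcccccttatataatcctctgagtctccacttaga
Ifit3b: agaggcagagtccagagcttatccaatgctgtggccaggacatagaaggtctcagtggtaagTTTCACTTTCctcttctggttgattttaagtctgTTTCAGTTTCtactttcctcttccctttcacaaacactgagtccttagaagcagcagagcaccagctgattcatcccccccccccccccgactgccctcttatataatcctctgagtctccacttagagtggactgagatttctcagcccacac
Rsad2: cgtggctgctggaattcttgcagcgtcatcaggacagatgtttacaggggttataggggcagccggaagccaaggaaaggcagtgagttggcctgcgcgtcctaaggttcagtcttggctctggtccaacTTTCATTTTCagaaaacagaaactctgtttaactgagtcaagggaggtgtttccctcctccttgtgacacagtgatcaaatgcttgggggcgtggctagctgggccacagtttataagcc

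Shorter windows of 30 bases show how the match varied among members of other roles. One of the overlapping matches of Bst2 is in capitals in each of its lines. The windows are Ifit1 at chr19:34640794-34640823 (plus strand), Bst2 at chr8:71537577-71537606 and, for the earlier match, chr8:71537583-71537612 (minus strand), Stat2 at chr10:128270266-128270295 (plus strand), Igtp at chr11:58199512-58199541 (plus strand), and the PYHIN genes Ifi208 at chr1:173673597-173673626 (plus strand) and Ifi214 at chr1:173536017-173536046 (minus strand). The PYHIN matches used the same 10 letters before Ifi203, Ifi206, Ifi208, Ifi213 and Ifi214. A match is a description of these letters, and no factor was measured at any of them.
Ifit1: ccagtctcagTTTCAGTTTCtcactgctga
Bst2: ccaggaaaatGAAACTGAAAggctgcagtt
Bst2, earlier match: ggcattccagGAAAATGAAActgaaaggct
Stat2: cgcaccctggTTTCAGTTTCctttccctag
Igtp: tctaggaactGAAACTGAAAgctgttcggg
Ifi208: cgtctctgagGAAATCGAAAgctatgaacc
Ifi214: agtctctgagGAAATCGAAAgcgatgcact

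The members were detected in every lymphocyte type, and each had its own order across types. Among the 6 types with at least 100 cells, 20 of the 42 members were highest in CD4+ Treg, the regulatory T cells, by cells pooled over mice. Of the 9032 genes that averaged at least as much as the lowest member, 22.7% were highest there. Some of these leads were small, and CD4+ Treg had the fewest UMIs of the 6 types. Another 6 members were highest in CD8+ Naive T, where 4.62% of those genes were. In each of B cells, CD4+ Mem T, CD4+ Naive T and CD8+ Mem T 4 members were highest, where 24.4%, 32.4%, 8.17% and 7.83% of those genes were. Ifi27l2a, a small membrane protein of the interferon-induced Ifi27 family, averaged 2339 ± 456 CPM in CD4+ Mem T (SD over 7 mice) and 2019 ± 374 CPM in CD4+ Treg (6 mice). Its levels were 1091 ± 166 CPM in CD4+ Naive T, 986 ± 227 CPM in B cells, 746 ± 101 CPM in CD8+ Naive T (7 mice each) and 598 ± 203 CPM in CD8+ Mem T (6 mice). The lowest CD4+ Mem T mouse (1875 CPM) and the lowest CD4+ Treg mouse (1563 CPM) both exceeded the highest CD4+ Naive T mouse (1267 CPM), whereas neighbouring types further down the order overlapped. Within the CD4 subsets, in cells pooled over mice and not tested, Ifi27l2a was 3581 CPM in 155 activated Treg cells and 1159 CPM in 188 early activated CD4 cells.

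Irf7 varied little between lymphocyte types, beside the spread over mice, while the B cell range of Bst2 (63.8 to 140 CPM) lay below that of CD8+ Naive T (152 to 208 CPM). Irf7 was highest in CD4+ Treg (91.4 ± 40.8 CPM) and lowest in B cells (61.2 ± 28.2 CPM), and no neighbours in its order differed by more than 1 SD. Bst2 ran in order through CD8+ Naive T (181 ± 22.7 CPM), CD8+ Mem T (178 ± 17.9 CPM), CD4+ Treg (172 ± 51 CPM), CD4+ Mem T (163 ± 42.4 CPM), CD4+ Naive T (142 ± 16.2 CPM) and B cells (105 ± 24.2 CPM). The 73 cells named Myeloid held more of both than any lymphocyte type, with 538 CPM of Bst2 and 358 CPM of Irf7, and they carried the erythroid and granulocyte RNA given above, whose part in these levels was not tested.

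Ifit3 spread widely between mice. It ranged 6.33 to 173 CPM over 6 mice in CD4+ Treg (mean 55.9 CPM), 33.3 to 82.8 CPM over 7 mice in CD8+ Naive T (mean 50.4 CPM) and 15.5 to 101 CPM over 7 mice in CD4+ Naive T (mean 39.3 CPM). Its ranges overlapped between all 6 types. Stat2 was highest in B cells (35.9 ± 6.92 CPM) and lowest in CD8+ Mem T (9.59 ± 8.14 CPM). Slfn2, which in mice keeps T cells quiescent, averaged 520 ± 70.2 CPM in CD4+ Mem T, 482 ± 74.4 CPM in CD4+ Naive T, 463 ± 34.6 CPM in CD4+ Treg, 338 ± 14.6 CPM in B cells, 324 ± 38.8 CPM in CD8+ Naive T and 285 ± 7.65 CPM in CD8+ Mem T. In cells pooled over mice, Usp18 was 98.5 CPM in 266 resting Treg cells and 12.1 CPM (6 UMIs) in 155 activated Treg cells. The subsets were not tested against each other.

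**Figure D1:**
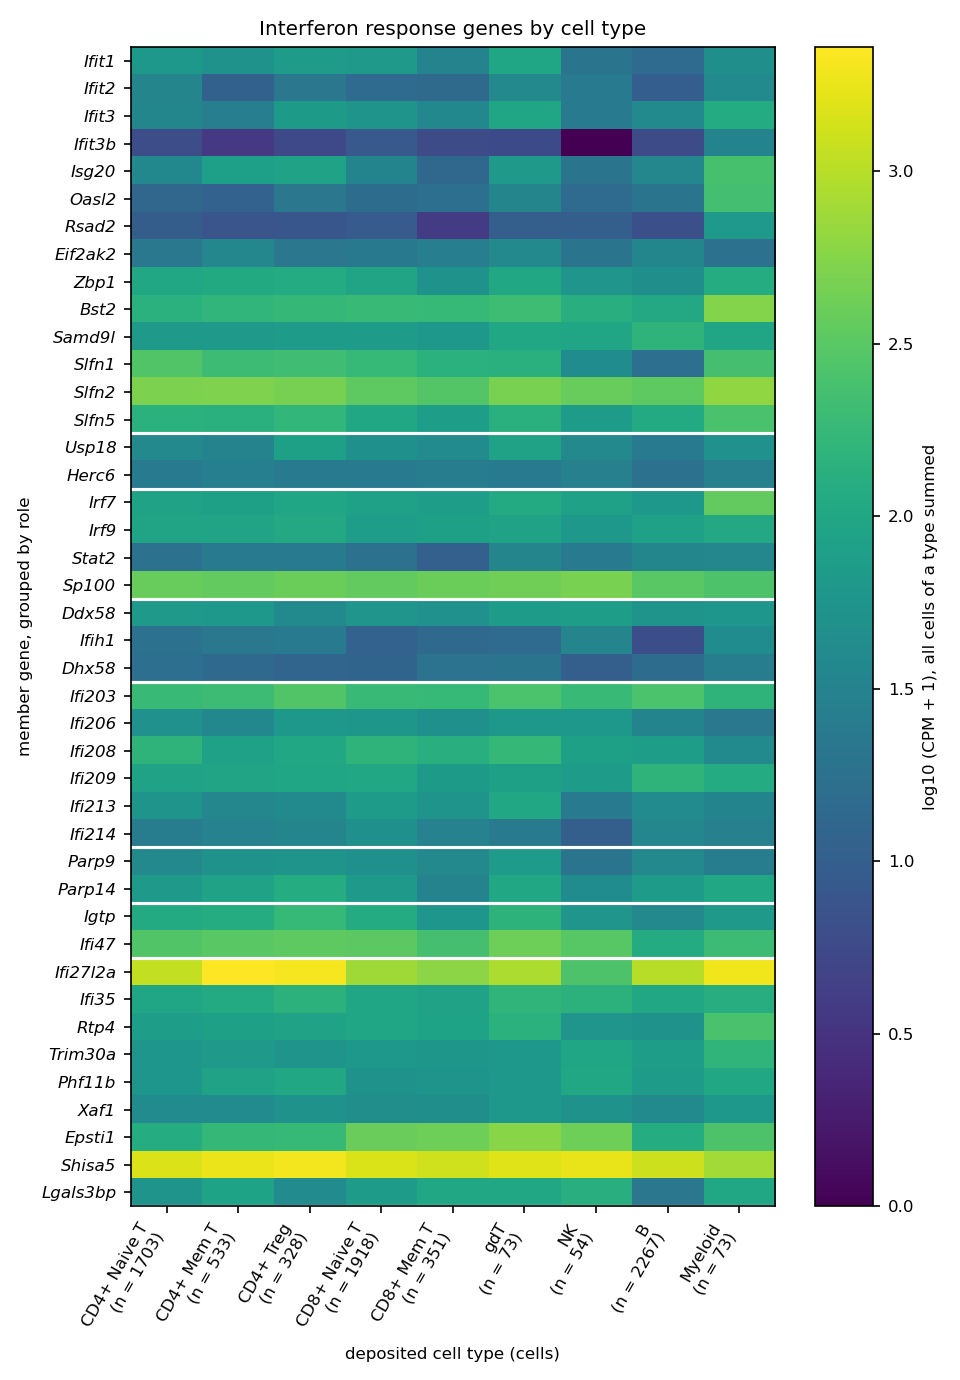
Heat map of the 42 measured members (rows, grouped by role with white lines between roles) in the 9 deposited cell types (columns, with cell numbers); colour is log10 (CPM + 1) of all cells of a type summed. Ifi27l2a is brightest in CD4+ Mem T and CD4+ Treg, Slfn1 is dark in B cells, and Epsti1 is brighter in CD8+ Naive T, CD8+ Mem T, gdT and NK cells than in CD4+ Naive T and B cells.

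B cells had more members called against CD4+ Naive T cells than any other type compared. Of 41 members tested, 7 were higher and 20 were lower in B cells, where 44% of all genes tested were called in either direction (edgeR's quasi-likelihood test on sums of 7 mice with a term for each mouse; called means a Benjamini-Hochberg adjusted p below 0.05). Slfn1 averaged 14.7 ± 9.71 CPM in B cells and 285 ± 17.7 CPM in CD4+ Naive T cells (SD, n = 7 mice each), which on the log2 scale was −4.16 ± 0.13 (SE; adjusted p = 1.31e-36 by edgeR). The ranges were 2.18 to 27.5 CPM in B cells and 259 to 309 CPM in CD4+ Naive T cells, so every mouse was lower in B cells. Ifit1 averaged 14.3 ± 6.88 CPM in B cells and 68.3 ± 28.8 CPM in CD4+ Naive T cells (log2 difference −2.19 ± 0.18, edgeR adjusted p = 5.69e-17), and Ifit2 (−1.96) and the RNA sensor Ifih1 (−1.63) were also lower. Samd9l, an antiviral factor that restrains translation, averaged 151 ± 17.6 CPM in B cells and 68.4 ± 14.5 CPM in CD4+ Naive T cells (1.13 ± 0.10, edgeR adjusted p = 7.43e-16), with ranges that did not overlap. Stat2 (1.00 ± 0.19), Ifi209 (0.75) and Oasl2 (0.64 ± 0.26, adjusted p = 0.035, which was 0.05 or more under 5 of the alternatives) were higher in B cells, while Ifit3, at 37.5 ± 26.3 CPM in B cells and 39.3 ± 29.2 CPM in CD4+ Naive T cells, was not called. The median log2 difference of the members was −0.31, against 0.03 over all genes tested.

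CD8+ Naive T cells stood closer to CD4+ Naive T cells. Of 42 members tested, 10 were higher and 5 were lower in CD8+ Naive T cells, against 15.7% of all genes called. Epsti1, an interferon-induced gene first known from epithelial and stromal contact, averaged 385 ± 32.9 CPM in CD8+ Naive T and 120 ± 26.5 CPM in CD4+ Naive T cells (n = 7 mice each), and the lowest CD8+ Naive T mouse (356 CPM) was above the highest CD4+ Naive T mouse (154 CPM). Its log2 difference was 1.78 ± 0.07 (edgeR adjusted p = 6.38e-42). Ifi214 (0.93), Ifit3 (0.71 ± 0.15, edgeR adjusted p = 0.00016, and 0.108 with DESeq2), Lgals3bp (0.49) and Bst2 (0.44) were higher in CD8+ Naive T, and Ifit2 (−1.18), Slfn1 (−0.64), Ifi27l2a (−0.48) and Slfn2 (−0.48) were lower.

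Isg20 and Ifi27l2a were higher in memory and in regulatory CD4 T cells than in CD4+ Naive T cells. The regulatory T cell list summed to 678 CPM in CD4+ Mem T and 26.6 CPM in CD4+ Naive T, and the part of this in the CD4+ Mem T values was not tested. CD4+ Mem T had 4 members higher and 6 lower of 38 tested against CD4+ Naive T, where 20.6% of all genes were called. CD4+ Treg had 9 higher and 3 lower of 35 tested, where 13.8% of all genes were called, in a fit of 6 mice that dropped WT mouse 6 for want of 20 Treg cells. Isg20 averaged 101 ± 44.7 CPM in CD4+ Treg (6 mice), 85.9 ± 34.5 CPM in CD4+ Mem T (7 mice) and 35 ± 14.8 CPM in CD4+ Naive T (7 mice). Its log2 difference from CD4+ Naive T was 1.14 ± 0.23 in CD4+ Treg (edgeR adjusted p = 9.08e-05) and 0.93 ± 0.20 in CD4+ Mem T (adjusted p = 0.0003). Ifi27l2a was higher in both, by 0.74 ± 0.06 in CD4+ Treg and 0.88 ± 0.06 in CD4+ Mem T. In CD4+ Treg Usp18 (1.01 ± 0.25, edgeR adjusted p = 0.00159, and 0.1 with DESeq2) and Parp14 (0.83) were higher, and Ddx58 (−0.83), Ifi208 (−0.66) and Slfn1 (−0.49) were lower. In CD4+ Mem T Lgals3bp (0.52) and Epsti1 (0.31) were higher, and Ifit2 (−1.92), Ifi208 (−1.08), Ifi213 (−0.80) and Slfn1 (−0.69) were lower. CD8+ Mem T against CD8+ Naive T had 2 higher members, Lgals3bp (0.54) and Sp100 (0.28), and 10 lower of 38 tested, where 10.9% of all genes were called (6 mice, without WT mouse 6). The lower ones included Isg20 (−1.25), Igtp (−0.97), Ifit1 (−0.96) and Parp14 (−0.93).

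The cell types were named by the submitters from these same cells, so a member that helped to name them had to differ. Of the members, 31 are outside the deposited list of 1212 processed genes. Among those tested of the 31, the counts higher and lower were 6 and 15 of 31 in B cells, 8 and 3 of 31 in CD8+ Naive T, 2 and 5 of 30 in CD4+ Mem T, 6 and 3 of 27 in CD4+ Treg, and 2 and 5 of 31 in CD8+ Mem T. Over all genes tested 44%, 15.7%, 20.6%, 13.8% and 10.9% were called in these comparisons. The share among all genes outside that list was not counted, so the counts of members are a description only. The CD8 markers summed to 350 CPM in CD4+ Mem T and 61.1 CPM in CD4+ Naive T, and the part of this in the differences was not tested.

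Other genes of the pathway, 69 measured of 76 listed, also differed between the types. Their counts stand beside the shares of all genes called in the same comparisons. These were 44% in B cells, 13.8% in CD4+ Treg and 15.7% in CD8+ Naive T. In CD4+ Mem T the share was 20.6%, and in CD8+ Mem T 10.9%. Of the pathway genes, 17 were higher and 22 lower of 55 tested in B cells. The transcription factors Irf5 (7.91) and Irf8 (6.26) and Ms4a4c (3.64) led these, with the GTPase Tgtp1 lower (−3.59). In CD4+ Treg 13 were higher and none lower of 39, among them the guanylate-binding proteins Gbp3 (3.46), Gbp7 (1.35) and Gbp2 (1.29), the signalling inhibitor Socs1 (1.43) and the receptor chain Ifnar2 (0.99 ± 0.18, edgeR adjusted p = 2.57e-05). In CD8+ Naive T 15 were higher and 4 lower of 52, with Ms4a4c (1.88), Gbp3 (1.24), Oas3 (0.96), Mx1 (0.82) and Ifnar2 (0.35) higher and Ly6a (−1.61) lower. In CD4+ Mem T 5 were higher and 7 lower of 46, with Irf8 (1.90) and Ifnar2 (0.56) higher and Irgm2 (−1.06), Socs3 (−0.96) and Tgtp1 (−0.90) lower. In CD8+ Mem T 5 were higher and 8 lower of 41, with Ms4a4c (1.74) higher and Tgtp1 (−1.33), Tgtp2 (−1.18) and Irgm2 (−1.15) lower. Ifnar1 was not called in any of these comparisons.

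The genotype comparison asked whether the interferon programme of lymph node lymphocytes differs after removal of Aire-expressing cells. Across 3 classes and 2 nodes, 1 member in 1 class was called, Ifit3 in CD4 T cells of udLN, and the summed programme overlapped between genotypes in every class and node. A core of 15 measured members, those most specific to interferon (Ifit1, Ifit2, Ifit3, Ifit3b, Irf7, Usp18, Rtp4, Oasl2, Rsad2, Zbp1, Xaf1, Ifi208, Ifi213, Dhx58 and Herc6), was summed for this. In brLN the core summed to 734 ± 162 CPM in Aire-DTR mice and 709 ± 111 CPM in WT mice for CD4 T cells, to 812 ± 181 CPM and 666 ± 87.8 CPM for CD8 T cells, and to 423 ± 147 CPM and 516 ± 184 CPM for B cells (SD, n = 4 Aire-DTR and 3 WT mice). In udLN it summed to 752 ± 77.8 CPM in Aire-DTR mice and 732 ± 123 CPM in WT mice for CD4 T cells, to 733 ± 218 CPM and 722 ± 7.35 CPM for CD8 T cells (n = 4 and 2), and to 447 ± 145 CPM and 335 ± 150 CPM for B cells (n = 4 and 3). A sum over cells of a class does not tell more transcripts per cell from more cells that express a gene. WT mouse 97 had 9 CD4 and 16 CD8 T cells in udLN, under the minimum of 20, and was left out of those sums, so that Aire-DTR mouse 36, then alone in pool 2, gave no information on genotype there.

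**Figure D2:**
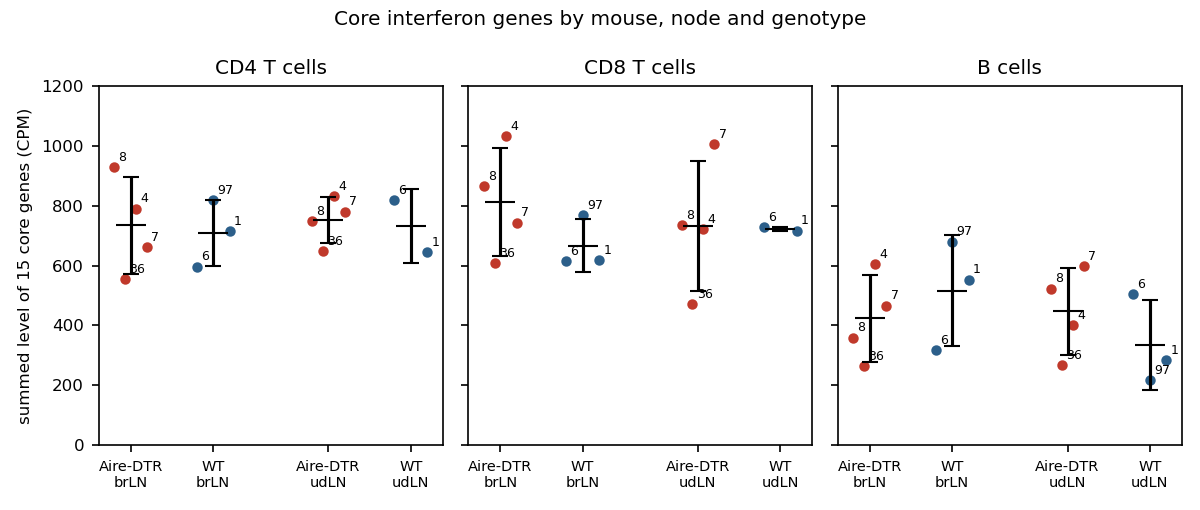
Summed level of the 15 core genes in CPM (y axis, from 0) for each mouse (points with mouse numbers), by genotype and node (x axis) in CD4 T cells, CD8 T cells and B cells; bars are the mean and SD. Aire-DTR and WT points overlap in each of the 6 pairs, as in CD4 T cells of brLN at 734 ± 162 and 709 ± 111 CPM.

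In brLN no member was called in CD4 T cells (0 of 40, against 0.0138% of all genes), in CD8 T cells (0 of 40, against 0.0768%) or in B cells (0 of 39, against 0.0271%) by edgeR's quasi-likelihood test with pool as a term. DESeq2 called none either. At an unadjusted p under 0.05 edgeR had 1, 3 and 8 members, where 4.77%, 5.1% and 4.04% of all genes tested were. DESeq2 had 0, 0 and 1 members, where 0.497%, 0.628% and 0.57% of all genes were. Median log2 differences of the members, Aire-DTR over WT, were −0.07, 0.05 and −0.34, against 0.00, 0.01 and 0.00 over all genes. The value in B cells became 0.04 without Aire-DTR mouse 36 and 0.05 without WT mouse 97, the 2 mice of pool 2.

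The single members show the same overlap. In CD4 T cells of brLN, Irf7 was 111, 73.8, 101 and 82.3 CPM in Aire-DTR mice 8, 36, 4 and 7, against 62.2, 107 and 66.1 CPM in WT mice 6, 97 and 1. Bst2 there was 165, 109, 168 and 153 CPM in Aire-DTR mice and 134, 156 and 162 CPM in WT mice. Ifit1, the member of smallest p in that class, was 67.3, 27.6, 56.3 and 40.8 CPM in Aire-DTR mice and 32.7, 83.4 and 68.8 CPM in WT mice (log2 difference −0.72 ± 0.23, edgeR adjusted p = 0.817). In pool 1 the Aire-DTR mouse was the higher for Ifit1 and in pool 2 the WT mouse, so the pools did not share a direction. The next by p, Ifit2, had an adjusted p of 0.987.

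In CD8 T cells of brLN, Ifit3 was 57.2, 34, 87.4 and 47.9 CPM in Aire-DTR mice and 35.1, 40.2 and 25.4 CPM in WT mice (0.67 ± 0.23, edgeR adjusted p = 0.612), and 3 of the 4 Aire-DTR mice lay above all WT mice. Irf7 in these cells was 98.7, 66.1, 107 and 81.9 CPM in Aire-DTR mice and 66.7, 91.9 and 64 CPM in WT mice. Ifit1 was next by p (0.51, adjusted p = 0.935). In B cells of brLN, Ifi27l2a was 691, 630, 1282 and 1133 CPM in Aire-DTR mice and 837, 1252 and 1273 CPM in WT mice (−0.45 ± 0.13, edgeR adjusted p = 0.796). Oasl2, a relative of the oligoadenylate synthetases, was 4.55, 13, 24.6 and 16.6 CPM in Aire-DTR mice and 10.9, 31.9 and 40.6 CPM in WT mice (adjusted p = 0.808). In each pool the Aire-DTR mice were below their WT mouse for Oasl2, at few UMIs per mouse.

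Ifit3 in CD4 T cells of udLN was the 1 member called, of 38 tested, where 0.127% of all genes were called. It was 35.4, 23.5, 70.7 and 41.4 CPM in Aire-DTR mice 8, 36, 4 and 7 (10, 11, 58 and 14 UMIs), against 33 and 2.25 CPM in WT mice 6 and 1 (6 UMIs and 1 UMI). The 9 cells of WT mouse 97, left out of the fit, gave 39.2 CPM. The fitted log2 value, Aire-DTR over WT, was 2.25 ± 0.47 (SE; adjusted p = 0.00424 by edgeR). Within pool 1 the mice nearly coincided, at 35.4 CPM in Aire-DTR mouse 8 and 33 CPM in WT mouse 6, and the difference lay in pool LN, where WT mouse 1 had its single UMI. Without WT mouse 1 the log2 difference was 0.08 (adjusted p = 0.984), and without Aire-DTR mouse 4 it was 1.62 (adjusted p = 0.861). Without Aire-DTR mouse 8 it was 4.62 (adjusted p = 6.38e-06) and without WT mouse 6 it was 4.62 (adjusted p = 5.50e-06), since either leaves pool LN alone to carry it. DESeq2 did not call it (adjusted p = 1), nor did the fits without the pool term (0.821), with both nodes (0.721) or of naive cells alone (0.805).

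Ifit3 was not called in the other classes and nodes. In CD4 T cells of brLN it was 90.9, 18.7, 38.9 and 26.4 CPM in Aire-DTR mice and 22.9, 53.3 and 24.3 CPM in WT mice, which overlap. In CD8 T cells of udLN it was 42, 21.3, 63 and 101 CPM in Aire-DTR mice and 62.6 and 54.1 CPM in WT mice 6 and 1. In B cells of udLN it was 50, 3.55, 21.5 and 106 CPM in Aire-DTR mice and 16.3, 0 and 13.5 CPM in WT mice. In these cells the Aire-DTR mice pooled with WT mouse 6 or 1 were above that WT mouse. WT mouse 97 had 20 B cells and 55056 UMIs in udLN, so its 0 does not place it below Aire-DTR mouse 36 of its pool. Slfn2 was second by p in CD4 T cells of udLN, at 422, 444, 455 and 372 CPM in Aire-DTR mice and 456 and 548 CPM in WT mice (−0.30, edgeR adjusted p = 0.851). At an unadjusted p under 0.05 edgeR had 6 members there (5.2% of all genes) and DESeq2, which called none, had 1 (0.319% of all genes).

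In the other udLN classes no member was called, with 0 of 37 in CD8 T cells (0.0353% of all genes) and 0 of 32 in B cells (0.0424%). At an unadjusted p under 0.05 edgeR had 6 members in each, where 5.17% and 3.56% of all genes were. DESeq2, which also called none, had 2 and 1, where 0.282% and 0.847% of all genes were. Ifit1 in CD8 T cells of udLN was 72, 7.09, 72.9 and 112 CPM in Aire-DTR mice and 62.6 and 25.9 CPM in WT mice 6 and 1 (1.29 ± 0.33, edgeR adjusted p = 0.134). Phf11b, a PHD finger gene, was 54, 53.2, 77.9 and 84.7 CPM in Aire-DTR mice and 46.9 and 25.9 CPM in WT mice (1.27 ± 0.35, edgeR adjusted p = 0.236). Usp18 in B cells of udLN was read 13, 4, 16 and 10 times in Aire-DTR mice 8, 36, 4 and 7 and 1, 0 and 2 times in WT mice 6, 97 and 1 (38.2, 14.2, 38.1 and 55.8 CPM, against 5.43, 0 and 6.76 CPM). The adjusted p of Usp18 was 0.487 by edgeR. WT mouse 97 had 20 cells and 55056 UMIs there, so its 0 does not place it below the Aire-DTR mice. Samd9l was next by p (0.58, adjusted p = 1). Median log2 differences of the members in udLN were 0.07 in CD4 T cells, −0.02 in CD8 T cells and 0.21 in B cells. None of the other pathway genes, Ifnar1, Ifnar2 and Mx1 among them, was called in any class or node.

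**Figure D3:**
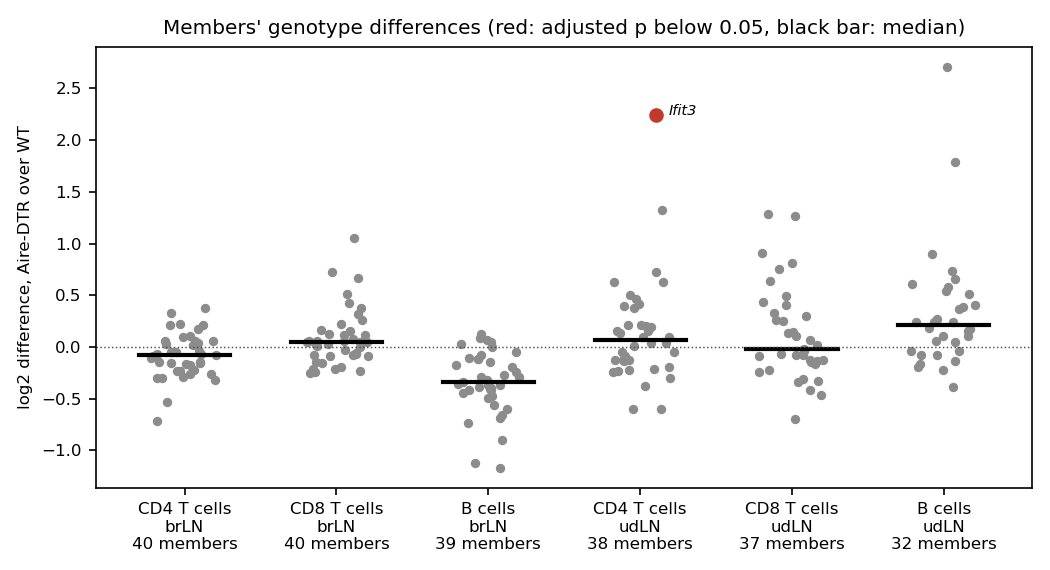
Log2 difference, Aire-DTR over WT, of each tested member (points) in the 6 class and node comparisons (x axis, with the number of members tested); black bars are medians and the red point is the member past an adjusted p of 0.05. The members spread around 0 in each comparison, with medians between −0.34 (B cells of brLN) and 0.21 (B cells of udLN), and Ifit3 in CD4 T cells of udLN at 2.25 is the single red point.

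Between nodes of the same mouse, 2 members were higher in udLN than in brLN in CD4 T cells, of 38 tested, where 0.5% of all genes were called (6 mice, without WT mouse 97). Ifit1 was 95.7, 57.7, 91.5, 67.9, 82.4 and 85.4 CPM in udLN of mice 8, 36, 4, 7, 6 and 1 (the first 4 Aire-DTR, the others WT), against 67.3, 27.6, 56.3, 40.8, 32.7 and 68.8 CPM in brLN of the same mice. Phf11b was 85.1, 87.6, 82.9, 112, 65.9 and 62.9 CPM in udLN, against 53.8, 50.7, 48.3, 74, 39.3 and 55.3 CPM in brLN. Both were higher in udLN in 6 of 6 mice, by a log2 difference of 0.66 ± 0.15 for Ifit1 (edgeR adjusted p = 0.0245) and 0.59 ± 0.14 for Phf11b (adjusted p = 0.0389). Of the other pathway genes Socs3, an inhibitor of cytokine signalling, was higher by 0.73 ± 0.17 (adjusted p = 0.0221). Without the mouse block the adjusted p was 0.178 for Ifit1, 0.38 for Phf11b and 0.166 for Socs3. In naive cells alone it was 0.812, 0.923 and 0.00127, and leaving out a single mouse lost both members for Aire-DTR mice 36, 4 or 7 and for WT mouse 6. DESeq2 called no member, with 3 at an unadjusted p under 0.05 (2.5% of all genes) where edgeR had 7 (8.2% of all genes).

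CD8 T cells and B cells gave no member that differed between nodes. In CD8 T cells 0 of 37 were called (0.189% of all genes), with 2 at an unadjusted p under 0.05 by edgeR (5.69% of all genes) and 2 by DESeq2 (1.15%), which called none. The smallest p belonged to Rsad2 (1.41 ± 0.59) and Ifih1 (1.06 ± 0.46), both with an edgeR adjusted p of 0.82. In B cells 0 of 34 were called (0.0179% of all genes), with 1 at an unadjusted p under 0.05 by edgeR (4.21% of all genes) and 0 by DESeq2 (1.7%), which called none. There Ddx58 (−0.49) and Ifi27l2a (−0.18) had the smallest p, both with an adjusted p of 1.

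The genotype difference itself differed between nodes for Ifi27l2a in CD8 T cells, 1 of 37 members, where 0.12% of all genes were called. In udLN it was 540, 649, 620 and 726 CPM in Aire-DTR mice 8, 36, 4 and 7, against 743 and 818 CPM in WT mice 6 and 1. In brLN it was 657, 544, 1032 and 793 CPM in Aire-DTR mice, against 579 and 627 CPM in the same WT mice. Aire-DTR mice were thus below both WT mice in udLN, while in brLN 3 of 4 were above them, and the difference of log2 differences was −0.66 ± 0.14 (edgeR interaction term with mouse as a block, adjusted p = 0.00527). It was −0.45 (adjusted p = 0.481) without Aire-DTR mouse 4 and −0.62 (adjusted p = 0.669) without WT mouse 1. Phf11b came next (adjusted p = 0.941), and edgeR had 9 members at an unadjusted p under 0.05, where 4.53% of all genes were.

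No member was called in this interaction in CD4 T cells (0 of 38, against 0.0781% of all genes). Before adjustment 4 members had a p under 0.05, as did 4.86% of all genes. The smallest p was again that of Ifi27l2a (−0.40 ± 0.11, edgeR adjusted p = 0.33), before Lgals3bp (adjusted p = 0.901). In B cells none was called either (0 of 34, against 0.0179%, with 3 at an unadjusted p under 0.05, where 3.94% of all genes were), and Usp18 and Slfn5 had an adjusted p of 1. DESeq2 was not run on the interaction.

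Most single cells had few UMIs of the core genes and a small tail had many. In 1000 UMIs drawn from each cell of at least that depth (132 shallower cells were left out, 89 of Aire-DTR and 43 of WT mice), the core genes had no UMI at all in 60% of CD4 T cells, 57.3% of CD8 T cells and 73.5% of B cells. The highest cell had 25 core UMIs among CD4 T cells, 19 among CD8 T cells and 21 among B cells. Cells with at least 5 core UMIs of 1000, called high cells here, were 48 of 2523 CD4 T cells (1.90%, 95% Wilson interval 1.44% to 2.51%), 52 of 2252 CD8 T cells (2.31%, 1.77% to 3.02%) and 30 of 2207 B cells (1.36%, 0.954% to 1.93%). The intervals cover counting error only. High cells are a range of a score and not a type, since 34, 34 and 15 cells of the 3 classes lay 1 UMI below the threshold and 14, 14 and 9 lay on it. With no drawing to a fixed depth, 11.9%, 16.5% and 5.29% of cells had at least 5 core UMIs.

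High cells were found in most lymphocyte types and in both genotypes. Among CD4 T cells they were 3.47%, 0.610%, 3.02% and 1.5% in Aire-DTR mice 8, 36, 4 and 7, against 1.45%, 1.24% and 2.41% in WT mice 6, 97 and 1. Among CD8 T cells they were 2.78%, 0.932%, 3.78% and 3.34% in Aire-DTR mice, against 0% (0 of 89 cells, which allows a share of up to 3.37%), 1.28% and 1.52% in WT mice. Of the 4 Aire-DTR mice 3 were above all WT mice, and mouse 36 of pool 2 was below its WT mouse 97. Among B cells they were 1.40%, 0.217%, 1.49% and 1.98% in Aire-DTR mice, against 1.23%, 2.19% and 1.37% in WT mice, which overlap. Mouse 36 had the smallest Aire-DTR share in each of the 3 classes. No test was made of these shares. By type they were 2.51% of CD4+ Treg, 2.52% of CD8+ Naive T, 1.90% of CD4+ Naive T, 1.53% of CD4+ Mem T and 1.15% of CD8+ Mem T cells. They were also 4 of 71 gdT cells (5.63%), 6 of 61 cells named Myeloid (9.84%) and 0 of 54 NK cells, which allows a share of up to 5.56%.

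**Figure D4:**
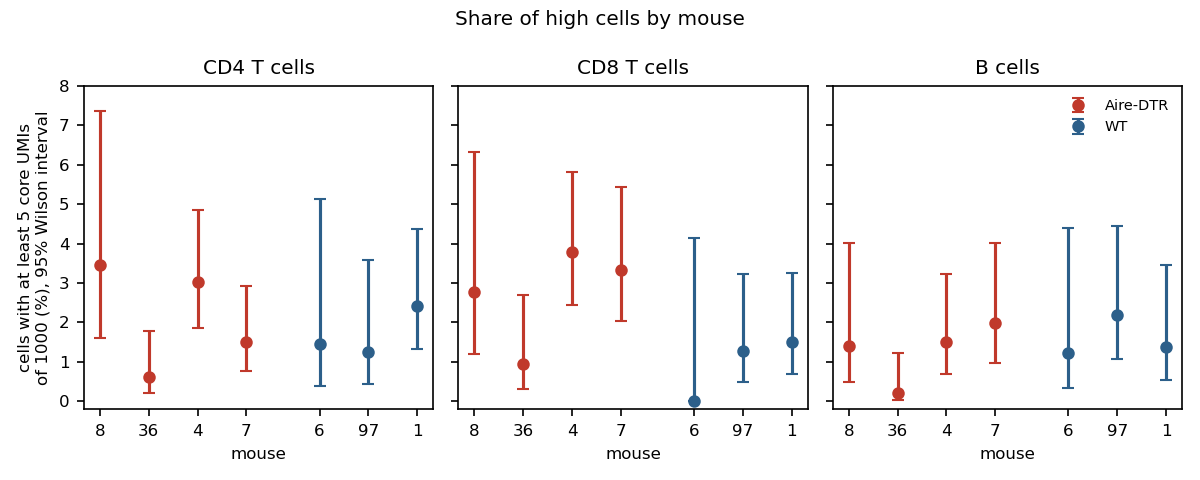
Percent of cells with at least 5 core UMIs of 1000 drawn (y axis) in each mouse (x axis, Aire-DTR mice left of WT mice) for CD4 T cells, CD8 T cells and B cells; points are shares and bars 95% Wilson intervals for counting error. In CD4 T cells the interval of mouse 36 (0.208% to 1.78%) lies below that of mouse 4 (1.87% to 4.85%), mouse 36 is lowest of the Aire-DTR mice in each class, and WT mouse 6 has 0 of 89 CD8 T cells.

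High cells held more of the members outside the core that chose them. The core genes were left out, and the other 27 members were compared between high and other cells of the same mouse, for mice with at least 5 high cells (Aire-DTR mice 8, 4 and 7 and WT mouse 1 in CD4 and in CD8 T cells; Aire-DTR mice 4 and 7 and WT mouse 97 in B cells). In CD4 T cells 19 of 27 were higher, where 1.86% of all genes were called. In CD8 T cells it was 19 of 27, against 1.06%, and in B cells 10 of 26 tested, against 2.75% (edgeR's quasi-likelihood test with mouse as a block, adjusted p below 0.05). No member was lower. The 27 include the PYHIN genes Ifi203, Ifi206, Ifi209 and Ifi214, relatives of Ifi208 and Ifi213 of the core. Counts may be shared between these copies, so these members were not wholly apart from the choice of cells. A gene that is low in the other cells can enter such a fit through the high cells alone, and must then differ. On the other cells alone, 23, 23 and 24 members would have been tested, of which 18, 17 and 10 were higher, where 2.32%, 1.01% and 2.94% of all such genes were called. With no filter on low counts, 15, 11 and 9 of all 27 members were called. The share of all genes called in that run is not given here, so these counts are a description only. Within mice, 26, 22 and 23 of the 27 were higher in high cells in every mouse compared, where 6%, 6.29% and 9.01% of all genes tested were. Among members that would have been tested on the other cells alone it was 23 of 23, 19 of 23 and 22 of 24. Of all such genes 6.12%, 6.48% and 9.05% were higher in every mouse. Epsti1 in CD8 T cells was higher in 2 of 4 mice, with a fitted log2 difference of −0.26 (edgeR adjusted p = 0.825). Summed over cells the median ratio of high to other cells was 3.99, 3.41 and 4.09 over the 27 members.

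Bst2 is an example with many UMIs. In CD4 T cells it was 608, 835, 465 and 588 CPM in high cells of mice 8, 4, 7 and 1, against 117, 145, 144 and 142 CPM in the other cells of these mice. CD8 T cells had 794, 438, 548 and 834 CPM of it in high cells, against 192, 169, 168 and 177 CPM in the others. In B cells it was 1390, 663 and 947 CPM in high cells of mice 4, 7 and 97, against 118, 95 and 102 CPM in the others. High cells exceeded the others in every mouse without overlap, and the log2 difference was 1.81 ± 0.27 in CD4 T cells (edgeR adjusted p = 2.99e-08), 1.38 ± 0.25 in CD8 T cells (1.59e-05) and 2.71 ± 0.36 in B cells (2.56e-10).

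The exonuclease gene Isg20 had the largest difference among members in B cells (2.95 ± 0.66, edgeR adjusted p = 0.000755). Its fitted difference was also the largest in CD8 T cells (3.55 ± 0.37). There it entered the fit through the high cells alone and had to differ, so no p is given. In CD8 T cells it was 72.2, 357, 439 and 156 CPM in high cells of mice 8, 4, 7 and 1 (1, 22, 24 and 3 UMIs), against 22.8, 20.4, 18.6 and 26.6 CPM in the others. CD4 T cells had 203, 344, 542 and 196 CPM of it in high cells, against 75.3, 49.4, 46.6 and 43.2 CPM in the others (2.27 ± 0.38, edgeR adjusted p = 9.72e-07). Ifi27l2a, common in the other cells too, was 2888, 3513, 4957 and 6659 CPM in high CD4 T cells of mice 8, 4, 7 and 1, against 1411, 1663, 1522 and 1394 CPM in the others. Its difference was 1.13 ± 0.19 in CD4 T cells, 1.01 ± 0.22 in CD8 T cells and 0.91 ± 0.17 in B cells, all called.

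The RNA sensor Ifih1 was below the filter in the other cells, and its values rest on that (16.3 CPM in other CD4 and 8.8 CPM in other CD8 T cells, against 144 and 108 CPM in high cells). It was higher by 2.72 ± 0.58 in CD4 and 3.09 ± 0.66 in CD8 T cells, where it had to differ, so no p is given. In B cells it was higher in 1 of 3 mice. In CD4 T cells Ifi206 (2.28) and the ubiquitin ligase gene Trim30a (2.09) were among the 4 largest, in CD8 T cells Ifi214 (2.20) and Phf11b (1.92), and in B cells Slfn5 (2.44) and Phf11b (2.36). Ifi206 and Ifi214 are relatives of core genes, with which counts may be shared. Slfn2 and Stat2 did not pass in any class. Summed over cells, Slfn2 was 842, 682 and 684 CPM in high CD4 T, CD8 T and B cells, against 485, 319 and 330 CPM in the others. Stat2 was 72, 90.9 and 107 CPM in high cells, against 18, 14.1 and 32.7 CPM in the others, on 10, 16 and 8 UMIs in high cells. Core genes are a description here since they chose the cells: Ifit1 was 1073 CPM in high CD4 T cells.

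**Figure D5:**
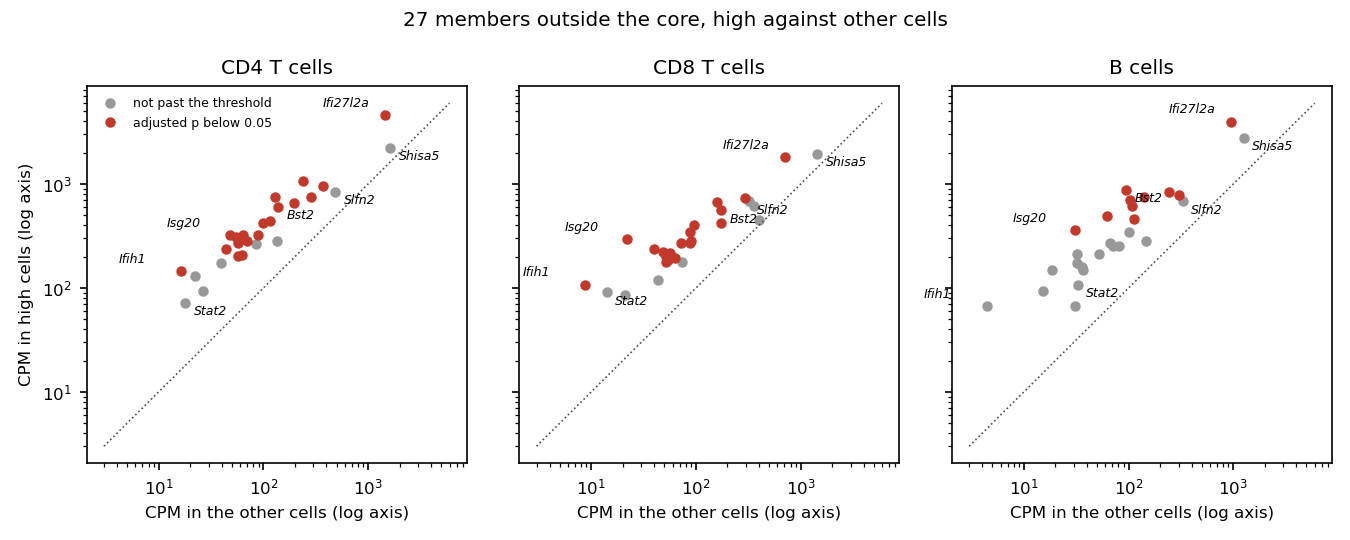
CPM of the 27 members outside the core in high cells (y axis, log) against the other cells (x axis, log) of CD4 T cells, CD8 T cells and B cells, summed over the mice; the dotted line marks equal levels and red points passed an adjusted p of 0.05. Summed over mice, all points lie above the line, 19, 19 and 10 of them in red, with Isg20 and Ifih1 farther from the line than Slfn2 and Shisa5.

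Scaling moved the level against which these differences are read. Under TMM scaling the median log2 difference over all genes was −0.26 in CD4 T cells, −0.27 in CD8 T cells and −0.57 in B cells, and that of the members was 1.64, 1.48 and 1.47 (1.58, 1.40 and 1.45 for those that would have been tested on the other cells alone). Under RLE scaling the medians over all genes were 0.01, −0.04 and −0.22, those of the members 1.91, 1.70 and 1.83, and 23, 22 and 12 members were called, all higher. Over all genes, 41 were higher and 61 lower in CD4 T cells, 46 and 10 in CD8 T cells, and 31 and 119 in B cells under TMM, against 61 and 6, 68 and 5, and 44 and 21 under RLE, so the lower genes in high cells depended on the scaling. Leaving out a mouse left 14 to 16 members called in CD4 T cells and 9 to 18 in CD8 T cells (9 without Aire-DTR mouse 4 or 7). In B cells it left 0 to 9, with 0 without Aire-DTR mouse 7 or WT mouse 97.

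Other genes of the pathway were also higher in high cells. Of those tested, 10 of 53 were higher in CD4 T cells, 16 of 52 in CD8 T cells and 12 of 49 in B cells, and none was lower. Over all genes tested, 1.86%, 1.06% and 2.75% were called in these fits. On the other cells alone 30, 34 and 29 of the pathway genes would have been tested, of which 5, 9 and 6 were higher. Of all genes that would have been tested so, 2.32%, 1.01% and 2.94% were called. Those named next were at low levels in the other cells and entered the fits through the high cells, so that they had to differ. Cmpk2, a nucleotide kinase of the mitochondria, had 26 UMIs in 48 high CD4 T cells (187 CPM) against 45 UMIs in the 2475 others (5.87 CPM). Its log2 difference was 4.67 ± 0.62 there and 3.73 in CD8 T cells. Oasl1 was higher by 3.2 in CD4 and 4.31 in CD8 T cells, and the GTPase Iigp1 by 2.31 and 2.78. Ifitm3, which blocks virus entry, was higher by 4.61 in CD4 T cells and 4.54 in B cells. Tlr7 (3.57, on 11 UMIs in high cells) and the antiviral GTPase Mx1 (2.36 ± 0.54) were higher in CD8 T cells, and Phf11a (4.32), Oas3 (3.83) and Ddx60 (3.61) in B cells.

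The chains of the interferon receptor were not called in high cells. Ifnar1 was 57.6, 51.1 and 53.6 CPM in high CD4 T, CD8 T and B cells, on 8, 9 and 4 UMIs, against 48.2, 41.2 and 44 CPM in the others. Ifnar2 was 64.8, 90.9 and 40.2 CPM in high cells, against 86.4, 84.1 and 65.4 CPM in the others.

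Depth and markers of other cells were read beside these differences. High cells had a median of 2749, 3265 and 2130.5 UMIs in CD4 T, CD8 T and B cells, against 2936, 3612 and 2278 UMIs in the others. Of the 5 myeloid markers, Lyz2, Csf1r, Fcer1g and Itgam were at 0 in high cells of all 3 classes, which allows up to 21.6, 17 and 40.2 CPM of a gene, and the list summed to 93.6, 131 and 241 CPM in high cells against 117, 103 and 262 CPM in the others. Granulocyte and gamma delta T cell markers were at 0 in high cells. NK cell markers summed to 7.2, 51.1 and 0 CPM in high CD4 T, CD8 T and B cells (1, 9 and 0 UMIs), against 3.52, 7.95 and 1.23 CPM in the others. Plasmacytoid dendritic cell markers summed to 28.8, 90.9 and 161 CPM in high cells (4, 16 and 12 UMIs), against 10, 75.8 and 88.3 CPM in the others. Erythroid genes summed to 1462, 90.9 and 281 CPM in high cells, against 415, 324 and 683 CPM in the others. In high B cells the T cell markers summed to 576 CPM and the CD8 markers to 268 CPM, against 308 and 110 CPM in other B cells, and the part of any of these lists in the differences was not tested.

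Outside both lists, a number of named genes were higher in high cells. These were chosen after their values were seen. Here too a gene low in the other cells could enter a fit through the high cells alone, and had then to differ. Of all genes called higher, members and pathway genes included, 29, 33 and 21 in CD4 T, CD8 T and B cells would have been tested on the other cells alone. Which of the genes outside the lists would have been was not examined. Daxx, a partner of nuclear bodies, was higher in CD4 (1.87 ± 0.36) and CD8 T cells (1.91 ± 0.34). So were Samhd1 (0.82 and 1.17), which limits free nucleotides, and Ifit1bl1 (2.19 and 2.17), a relative of Ifit1 of the core. Pml, the scaffold of nuclear bodies, was higher in CD8 T cells (1.95) and B cells (1.57), Trim30c in B cells (5.07), Cd69 in CD8 T cells (1.13) and Lgals9 in CD4 T cells (0.97) and B cells (1.32). By size, the 4 largest differences outside the lists were those of other genes. In CD4 T cells Trbv17 (−8.43), Vta1 (−8.12), Nfkbid (−8.08) and Zmynd8 (−8.08) were lower. In CD8 T cells Trbv13-1 (−9.77), Clec2i (−8.12) and Trbv1 (−4.58) were lower and Trav9-2 (3.2) was higher. In B cells Igkv6-23 (−10.4), Igkv6-15 (−10.4), Igkv1-110 (−10.4) and Igkv17-127 (−10.3) were lower. In all, 12 genes outside the lists were higher and 61 lower in CD4 T cells, 11 and 10 in CD8 T cells, and 9 and 119 in B cells. Antigen receptor genes made up 2 and 5, 3 and 2, and 4 and 18 of these. They were variable segments apart from the constant gene Iglc2, lower in B cells.

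Across 40 sums of 1 mouse and 1 cell type, the genes most like Ifit3 were Irf7 (Pearson r 0.72), Rtp4 (0.59), Ifi214 (0.52), Ifit1 (0.51) and Nsun5 (0.50). Ifit3 stood in for Isg15, the gene meant for this, which had no row. The first 4 are members and the last, an RNA methyltransferase gene, is not. These are descriptions over sums that share mice and differ in depth.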

How the data were processed

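Single-cell libraries were made with a 10x 3′ v3 kit from hashtag-pooled mice, per the labels' protocols. The authors deposited whole-number UMI counts per gene and cell with a table of cell types and mice. The submitters' processing notes name kallisto 0.46.1, bustools 0.40.0, Scanpy 1.7.0, Seurat and build GRCm38. How doublets were treated is not given in the sources used here, and no doublet caller was run. The deposited counts were summed by mouse, node and class (at least 20 cells) and tested with edgeR 4.0.16 in R 4.3.3 (TMM, filterByExpr, quasi-likelihood, Benjamini-Hochberg over all genes, adjusted p below 0.05). Genotype fits had pool as a term. Node, cell type and high-cell fits had mouse as a block, because both sums came from the same animal. DESeq2 1.42.0, other scalings, filters and cell sets, and leaving out each mouse were alternatives. A fixed set of genes, called always-named, was Ifit3, Irf7, Bst2, Ifi27l2a, Stat2, Slfn2, Ifnar1, Ifnar2 and Mx1. Not all of them are given for every comparison. Further members were up to 4 called in each direction by size, or the 2 of smallest p where fewer than 2 passed. High cells were found in 1000 UMIs drawn per cell (seed 1). The members and lists were chosen with earlier results of these data known. The fits were tested on simulated data. The values of 1 pathway gene are not reported here.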

Additional observations from a re-analysis of the deposited data

Results flagged for a closer look

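Ifit3 in CD4+ Naive T cells of Aire-DTR mouse 8 stood apart from the other 6 mice, at 101 CPM against 46 CPM in the next mouse. The gap was 0.641 of the range over the 7 mice. Of 93 groups of mice examined in this way, 1 had such a mouse, where chance flags about 1 in 20 groups. Ifi27l2a in CD8 T cells had a genotype difference that differed between nodes, by −0.66 ± 0.14 on the log2 scale (edgeR interaction term with mouse as a block, adjusted p = 0.00527). In udLN all 4 Aire-DTR mice were below both WT mice, and in brLN 3 of 4 were above the same WT mice. Without Aire-DTR mouse 4 the adjusted p was 0.481, and without WT mouse 1 it was 0.669.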

How the results depend on the processing

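Alternatives were read for the genes picked by size or p in each comparison. In high cells they were also read for Mx1 and the always-named members outside the core. None of these genes changed direction in a run that gave an adjusted p. Always-named genes not picked by size or p were not read in this way in the other comparisons, and no mouse was left out of the cell type comparisons. Among the genes read, 64 of the values under other settings were no longer past the threshold, 17 came past it and 653 kept their side. The genotype count in CD4 T cells of udLN was 0 with DESeq2, without the pool term, with both nodes in 1 fit, in naive cells alone and with the duplicated cells counted as deposited, an alternative chosen after seeing the data. That in B cells of udLN was 1 with no low-count filter, as was the genotype by node count in CD4 T cells. The node count in CD4 T cells was 0 with DESeq2, without the replicate block, in naive cells alone and with the duplicated cells. With DESeq2 6 members were called in CD4+ Mem T, 7 in CD4+ Treg and 4 in CD8+ Mem T, and in brLN alone 6 in CD8+ Mem T. In high cells 5 were called in CD4 T cells and 0 in CD8 T cells at a threshold of 8 core UMIs, 11 in CD8 T cells with no filter, and 22 in B cells at a threshold of 3. At 8 core UMIs B cells could not be fitted, since fewer than 2 mice remained. The causes were not tested.

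Leaving out each mouse gave 0 to 1 genotype calls in CD4 and CD8 T cells of udLN, 0 to 2 node calls in CD4 T cells, 0 to 1 genotype by node calls in CD4 and CD8 T cells, and 14 to 16, 9 to 18 and 0 to 9 calls in high CD4 T, CD8 T and B cells. CD8 T cells of udLN had a call without Aire-DTR mouse 8 or 4 or WT mouse 6.

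Shares of high cells moved with their definition. At 3 core UMIs they were 6.25% in Aire-DTR and 6.68% in WT CD4 T cells, 7.02% and 5.64% in CD8 T cells, and 3.63% and 4.90% in B cells. At 8 they were 0.578% and 1.13%, 0.963% and 0.376%, and 0.419% and 0.774%. With 1500 UMIs drawn they were 4.39% and 4.34%, 4.51% and 2.55%, and 2.31% and 3.71%. With at least 15 UMIs of all members they were 6.07% and 7.43% in CD4 T cells, 3.44% and 3.26% in CD8 T cells, and 3.21% and 3.61% in B cells.

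Counts over all genes moved by more than 1.5 times in 82 of the alternatives and stayed within it in 178. Depth limits the low members, since a gene with no UMI in high cells could have up to 21.6 CPM in CD4 T, 17 CPM in CD8 T and 40.2 CPM in B cells.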
